A study of Mus musculus with 2 samples.

Results

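Haemoglobin genes and genes of the red cell lineage were measured in the skin of newborn mice with and without the lipase-family gene *Pnpla1*. The 9 genes were taken by name: the adult globins *Hba-a1* and *Hbb-b1*, the embryonic globins *Hba-x*, *Hbb-bh1* and *Hbb-y*, and the red cell genes *Alas2*, *Ahsp*, *Slc4a1* and *Klf1*. They were read by 10 of the 39429 probes and are 9 of the 30199 gene names on a 1-colour Agilent mouse array. The study asked how the absence of *Pnpla1* alters gene expression in newborn skin. One array was hybridised with RNA from *Pnpla1*+/+ (wild type) skin and 1 with RNA from *Pnpla1*-/- (knockout) skin. The mice were C57BL/6N at postnatal day 0, and each array held equal amounts of RNA from 6 animals.

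Both genotypes came from crosses between heterozygotes, and the wild type pups were littermates of the knockouts. The targeted allele was of the knockout-first type, made in C57BL/6N embryonic stem cells, with the LacZ and Neo cassettes later cut out by flippase. The knockout was present in every tissue, blood-forming organs included. A pool of 6 animals gives 1 value, so neither the spread between mice nor any test between genotypes could be had. The *Pnpla1* probe itself read 579 on the wild type and 114 on the knockout array, a scaled log2 difference of -2.07. The deleted part was not compared with the position of that probe. The labels say skin, and the keratins *Krt5*, *Krt14*, *Krt1* and *Krt10* of epidermal cells read between 53789 and 277989 on both arrays.

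Haemoglobin is a tetramer of α-like and β-like globin chains, each holding a haem group. In the mouse the first red cells arise in the yolk sac, circulate with a nucleus and use the embryonic chains ζ (*Hba-x*), βH1 (*Hbb-bh1*) and εy (*Hbb-y*). Cells from the fetal liver and later the bone marrow lose the nucleus and use the adult chains, which lie further along the same clusters. Young red cells, the reticulocytes, keep globin mRNA for a short time after the nucleus is gone, and RNA from skin therefore includes that of the blood in its vessels. *Alas2* encodes the erythroid form of the first enzyme of haem synthesis, *Ahsp* a chaperone of free α-globin, *Slc4a1* the anion exchanger band 3 of the red cell membrane, and *Klf1* a transcription factor that binds CACCC boxes of erythroid promoters.

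The probe sequences are shown because they set which globin each value stands for. All bases of these 60-base probes are in lower case, and they are written 5′ to 3′ as in the deposited files.
*Hba-a1*: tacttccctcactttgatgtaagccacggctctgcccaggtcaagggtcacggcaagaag
*Hba-x*: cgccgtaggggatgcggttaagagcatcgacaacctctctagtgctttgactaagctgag
*Hbb-y*, the dimmer probe: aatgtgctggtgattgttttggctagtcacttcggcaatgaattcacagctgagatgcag
On mouse assembly mm9 they lie at chr11:32183955-32184014 on the plus strand, chr11:32177668-32177727 on the plus strand and chr7:111000448-111000507 on the minus strand. The files list the *Hba-a1* probe under the transcripts of both *Hba-a1* and *Hba-a2*, so it reads the adult α-globins together. The probe named *Hbb-b1*, at chr7:110961105-110961164 on the minus strand, has a transcript that RefSeq now calls *Hbb-bt*. The probes of *Hbb-bh1*, *Alas2* and *Slc4a1* lie at chr7:110990209-110990268 (minus), chrX:147004993-147005052 (plus) and chr11:102210256-102210315 (minus). That of *Klf1* lies at chr8:87428881-87428940 (plus), and the files give no position for that of *Ahsp*. The brighter *Hbb-y* probe lies at chr7:111000268-111000327 on the minus strand.

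The 120 bases before the start of adult and embryonic globin genes are shown to set the α-like and β-like promoters side by side. They are from RefSeq on assembly GRCm38.p6, and capitals mark CACCC or ATAAAA.
*Hba-a1*, chr11:32283552-32283671, plus strand: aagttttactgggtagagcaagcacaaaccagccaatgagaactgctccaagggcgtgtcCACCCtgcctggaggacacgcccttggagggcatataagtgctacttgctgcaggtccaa
*Hba-x*, chr11:32276480-32276599, plus strand: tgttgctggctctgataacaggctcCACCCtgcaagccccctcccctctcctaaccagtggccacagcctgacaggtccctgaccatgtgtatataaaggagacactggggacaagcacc
*Hbb-bt*, chr7:103813924-103814043, minus strand: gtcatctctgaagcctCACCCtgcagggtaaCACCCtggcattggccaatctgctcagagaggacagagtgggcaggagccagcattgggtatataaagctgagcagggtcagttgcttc
*Hbb-bs*, chr7:103827929-103828048, minus strand: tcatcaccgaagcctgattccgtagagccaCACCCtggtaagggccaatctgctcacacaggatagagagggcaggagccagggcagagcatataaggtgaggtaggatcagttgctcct
*Hbb-y*, chr7:103853208-103853327, minus strand: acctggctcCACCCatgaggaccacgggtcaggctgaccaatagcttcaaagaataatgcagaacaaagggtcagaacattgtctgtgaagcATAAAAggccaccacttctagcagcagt
Of the 9 genes, 5 matched a RefSeq promoter by symbol and *Hbb-b1* matched through its transcript as *Hbb-bt*, leaving *Hbb-bh1*, *Ahsp* and *Slc4a1*. In a window of 250 bases before the start, both strands were searched for CACCC, the KLF1 box. The same windows were searched for AGATAA, a word bound by GATA factors. The third word, ATAAAA, resembles the TATA box and can overlap the second. CACCC was in each of the 5 promoters shown, beginning 60 bases before the start in *Hba-a1*, 95 in *Hba-x*, 89 and 104 in *Hbb-bt*, 90 in *Hbb-bs* and 111 in *Hbb-y*. It is a common word, found in 52.1% of 32544 mouse promoters over 250 bases and in 31.8% over 120 bases. ATAAAA was in *Hbb-y* among those shown, beginning 28 bases before the start, against 16.9% of promoters over 250 bases. AGATAA was found in *Hbb-bs* at 210 bases, outside the stretch shown, against 9.97% of promoters over 250 bases. The *Alas2* promoter held CACCC on the opposite strand at 40, 35 and 30 bases, and overlapping AGATAA and ATAAAA on that strand at 86 and 88 bases. The stretches of *Hba-a1* and *Hba-a2* were identical at 117 of 120 bases, whereas those of *Hba-a1* and *Hba-x* shared 64 bases and those of *Hbb-bt* and *Hbb-y* 67 bases after alignment.

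Intensities are given as deposited, in arbitrary units, with the error that the scanner software attached to the spot. Differences are log2 of the intensity divided by the 75th percentile of its array (2108 for wild type, 1734 for knockout), knockout minus wild type, so that 1 on this scale is 2-fold. Of 43020 spots on each array, 71.7% of the wild type and 73.3% of the knockout were well above background, and no spot was saturated. Probes printed at least 8 times gave a technical SD of a difference of 0.05 (385 probes) and, for those under an intensity of 200, of 0.16 (51 probes). The probes described here were printed once, and the technical SD does not cover the spread between mice. Brightness also depends on the probe, so levels of different genes are not compared.

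Most of the red cell genes that could be read were higher on the knockout array. Of the 9 genes, 7 were well above background on both arrays, 4 of them were at least 2-fold higher (*Hbb-b1*, *Hbb-y*, *Alas2* and *Slc4a1*) and none was at least 2-fold lower. For comparison, the share of all 22400 genes with a difference that passed 2-fold was 6.7% in the higher and 3.04% in the lower direction. The median difference was 1.04 over the 7 genes and 0.0028 over all genes. A difference within 0.05 of 1.04 was found for 217 genes, 0.969% of all, so the size of the difference was not peculiar to red cell genes. Higher genes made up 68.8% of those past 2-fold on this scale, 41.2% without scaling and 27.5% when the arrays were centred on their spiked-in E1A control RNA.

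**Figure D1:**
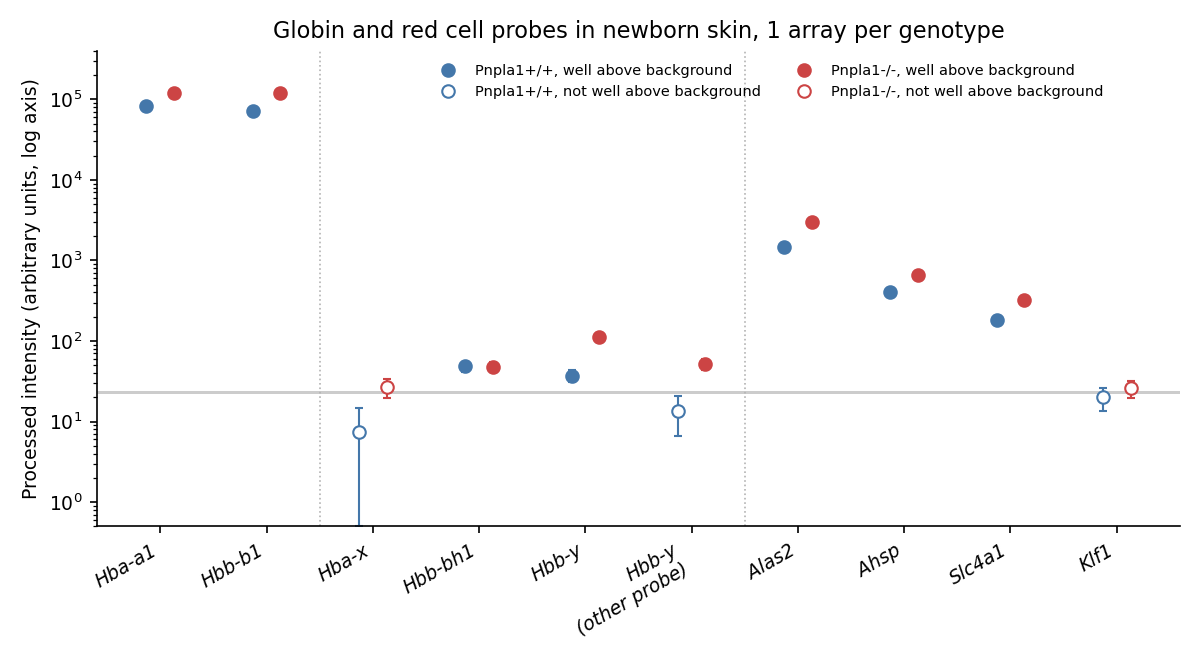
Processed intensity (arbitrary units, log axis) of the 10 probes on the *Pnpla1*+/+ (blue) and *Pnpla1*-/- (red) array, 1 point per array; bars are the scanner software's error, open points are not well above background, the grey line is near the lowest intensity well above background and the bar of *Hba-x* in wild type runs to the bottom of the axis. *Hba-a1* and *Hbb-b1* read 81424 and 71131 in wild type and 118798 and 120121 in the knockout, while *Hba-x* and *Klf1* have open points for both genotypes.

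The adult globins had bright probes on both arrays. *Hba-a1* read 81424 ± 8142 on the wild type and 118798 ± 11880 on the knockout array. This was a scaled difference of 0.83 with a software error of 0.20, or 1.77-fold, which is short of 2-fold. *Hbb-b1*, the adult β-globin, read 71131 ± 7113 in wild type and 120121 ± 12012 in the knockout. The difference of 1.04 with an error of 0.20, or 2.05-fold, stood close to the 2-fold line and was past it under 7 of 12 other ways of processing. The probe rules and filters among these cannot move a gene with 1 bright probe. *Hbb-b1* was short of 2-fold with median scaling (0.97), no scaling (0.76), quantile normalization (0.89), cyclic loess (0.92) and spike-in centring (0.61). The α and β chains were thus higher in the knockout by similar amounts, with *Hbb-b1* above *Hba-a1* by 0.21 on the log2 scale and a software error of 0.29 on that gap.

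Probes named for other adult genes of the clusters were also higher in the knockout. The *Hba-a2* probe, which the files list under the transcripts of *Hba-a2* and *Hba-a1* alike, read 230594 in wild type and 299599 in the knockout, a difference of 0.66 or 1.58-fold. The probe named *Hbb-b2* read 22554 and 38094, a difference of 1.04 or 2.05-fold. C57BL/6 mice carry the adult β-globins *Hbb-bs* and *Hbb-bt* in place of *Hbb-b1* and *Hbb-b2*, and the files give that probe no position, so the value is that of a probe for adult β-globin and not of a minor chain. Because globin genes of one cluster are near copies of each other, a probe may pick up RNA of its neighbours, and these values are not independent. More red cells in the sample and more globin RNA per cell cannot be told apart in whole skin.

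The embryonic globins were near the lower limit of the array and did not share a single difference. *Hbb-y*, the embryonic εy chain, read 36.9 ± 6.16 in wild type and 113 ± 12.1 in the knockout. The difference of 1.89 with an error of 0.29, or 3.71-fold, was the highest of the 7 genes with a difference as reported. With normexp background correction *Hbb-y* was at 1.11, below *Alas2* at 1.26. At its dimmer probe *Hbb-y* read 13.7 ± 7.14, not well above background, in wild type and 52.1 ± 8.30 in the knockout. Against the lowest signal well above background, that probe was at least 2.65-fold higher (1.41 on the log2 scale). Being well above background in the knockout alone, that probe could only give a bound in the higher direction, so it adds no support. The *Hbb-y* probes lie 0.18 kb apart on 1 transcript.

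*Hbb-bh1*, the embryonic βH1 chain, read 48.3 ± 6.96 in wild type and 47.9 ± 6.55 in the knockout. Its scaled difference of 0.27, with an error of 0.29, came from the lower 75th percentile of the knockout array, and it was below 0 without scaling and after spike-in centring. *Hba-x*, the embryonic ζ chain, read 7.42 ± 7.42 in wild type and 26.7 ± 6.997 in the knockout. Neither value was well above background, so no difference is given for it. The embryonic globins thus ranged from *Hbb-bh1*, with nearly equal intensities, to *Hbb-y*, a gap of 1.62 on the log2 scale with a software error of 0.41. The gap was smaller with normexp background correction, which put *Hbb-y* at 1.11 and *Hbb-bh1* at 0.25. Dim probes scatter more, and among 6883 genes with a mean intensity under 200 the share at least 2-fold higher was 9.08% and the share at least 2-fold lower 4.55%.

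Embryonic and adult globins were compared by their differences. The median was 1.08 over *Hbb-y* and *Hbb-bh1* and 0.93 over *Hba-a1* and *Hbb-b1*, a contrast of 0.15 that joins a gene above the adult pair and a gene below it. *Hbb-y* exceeded *Hbb-b1* by 0.86 with a software error of 0.35, but with normexp background correction their differences were close, at 1.11 and 1.04. *Hbb-bh1* lay below *Hbb-b1*, at -0.77 with an error of 0.35.

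**Figure D2:**
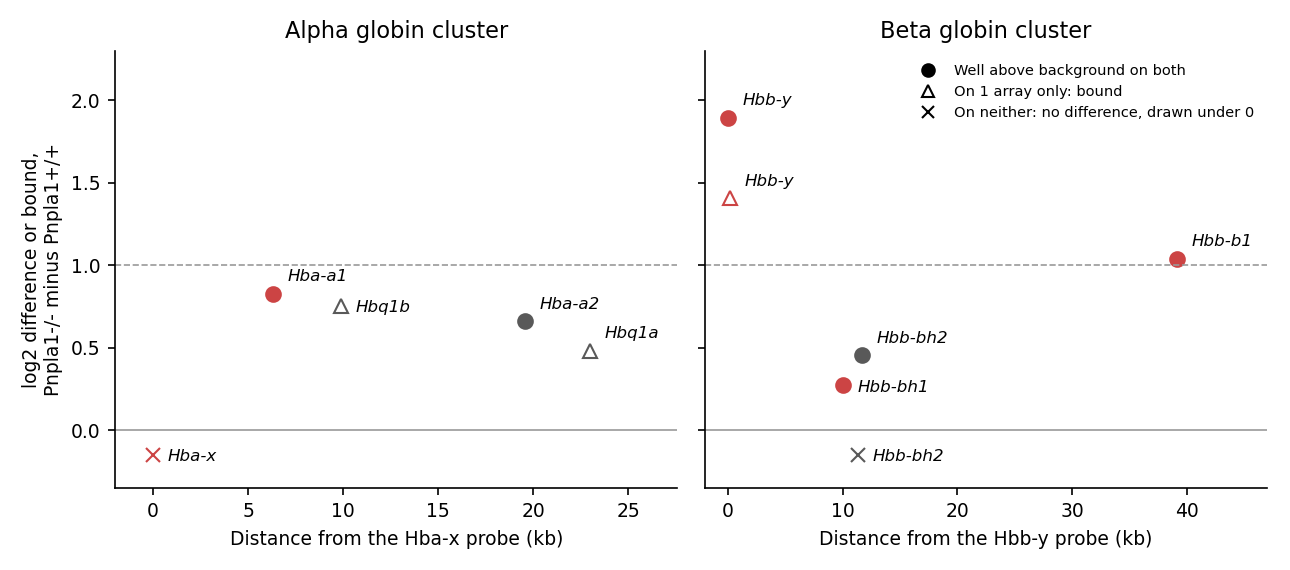
Scaled log2 difference, *Pnpla1*-/- minus *Pnpla1*+/+, of each mapped globin probe against its distance in kb from the *Hba-x* probe (left) or the *Hbb-y* probe (right); red marks the 9 genes taken by name and grey the other globins, triangles are bounds, crosses have no difference and are drawn under 0, and the dashed line is 2-fold. In the β cluster *Hbb-y* (1.89) and *Hbb-b1* (1.04) lie above 1 and *Hbb-bh1* (0.27) and *Hbb-bh2* (0.45) below it. In the α cluster the probes *Hba-a1* (0.83) and *Hba-a2* (0.66), which each read both genes, lie below 1. There the triangle of *Hbq1a* marks a lower bound of 0.48, and that of *Hbq1b* marks 0.76, a plain ratio to its own wild type signal.

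The place of each probe in its cluster was read as the distance from the embryonic probe at the start. In the β cluster *Hbb-bh1* was 10.1 kb from the *Hbb-y* probe and *Hbb-b1* 39.2 kb from it, and the nearer gene had the smaller difference. *Hbb-bh2*, a β-like gene 11.7 kb away, read 30.02 and 33.8, a difference of 0.45. In the α cluster the probes named *Hba-a1* and *Hba-a2* are placed 6.29 and 19.6 kb from the *Hba-x* probe. Each reads both genes, so the differences drawn at these distances cannot be given to the place of either gene. The θ-like genes *Hbq1b* and *Hbq1a*, 9.88 and 23.0 kb away, were well above background on the knockout array alone, so they could only come out higher. *Hbq1a* was higher by at least 0.48. The 0.76 of *Hbq1b* is a plain ratio to its own wild type signal and not a lower limit, with a software error of 0.42. Of 9 names of other cluster globins searched, 5 had a probe and 3 (*Hba-a2*, *Hbb-b2* and *Hbb-bh2*) were read on both arrays. Of these the probe named *Hbb-b2* was at least 2-fold higher, beside 6.7% of all genes. *Nprl3*, *Mpg*, *Rhbdf1* and *Snrnp25*, 4 genes beside the α cluster on chromosome 11 that are not globins, had a median of -0.12 and ranged from -0.28 (*Snrnp25*) to -0.07 (*Mpg*). *Polr3k* and *Luc7l*, which were on the same list, are placed by the files on chromosomes 2 and 17 and had differences of -0.20 and -0.37, with the dimmer *Luc7l* probe at 0.32.

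The remaining red cell genes with a readable signal were higher in the knockout in each case. *Alas2* read 1478 ± 148 in wild type and 3031 ± 303 in the knockout. Its difference of 1.32 with an error of 0.20, or 2.49-fold, exceeded that of *Hbb-b1* by 0.28 with an error of 0.29. *Alas2* lies on the X chromosome, and values of sex-linked genes are given with the markers of other cells. *Ahsp* read 406 ± 41.1 and 650 ± 65.2, a difference of 0.96 with an error of 0.21, or 1.95-fold. The chaperone thus lay between *Hba-a1*, whose product it binds, and *Hbb-b1*, by gaps smaller than the software errors. *Ahsp* lay above *Hbb-b1* with cyclic loess (1.05 against 0.92) and with quantile normalization (0.93 against 0.89).

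*Slc4a1*, band 3, read 183 ± 19.0 in wild type and 324 ± 32.7 in the knockout. The difference of 1.11 with an error of 0.21, or 2.16-fold, passed 2-fold under 9 of 12 other ways of processing. The probe rules and filters among these cannot move a gene with 1 probe well above background. *Slc4a1* was short of 2-fold without scaling (0.83), with spike-in centring (0.68) and with normexp (0.94). *Klf1*, the transcription factor, read 20.0 ± 6.32 and 25.7 ± 5.90, and no difference is given because neither value was well above background. The median over *Alas2*, *Ahsp* and *Slc4a1* was 1.11, between the values of the adult globins and *Hbb-y*.

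**Figure D3:**
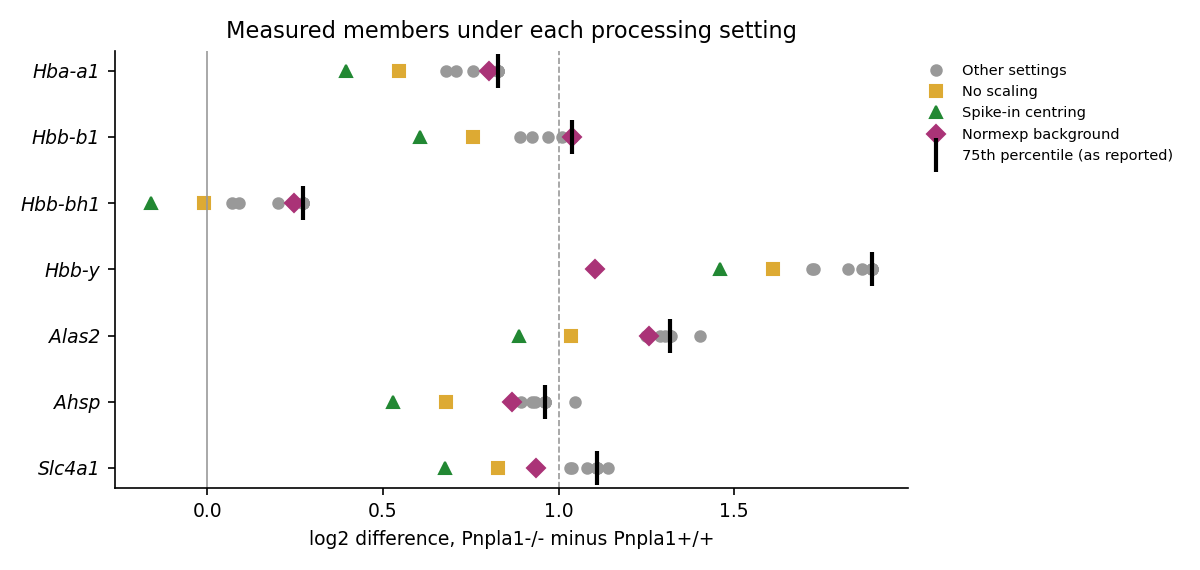
Log2 difference, *Pnpla1*-/- minus *Pnpla1*+/+, of the 7 genes with a signal well above background on both arrays, as reported (black bar) and under the other ways of processing (points); the dashed line is 2-fold. *Hbb-y* stays between 1.11 and 1.89, *Hba-a1* between 0.39 and 0.83, and *Hbb-bh1* crosses 0, from -0.16 to 0.27.

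The rest of the red cell programme was read from lists of haem synthesis, membrane, regulator and maturation genes and the other cluster globins. Of 65 names, 61 had a probe and 58 a difference or bound. Past 2-fold were 5 genes on the higher side, among them *Hbb-b2*, *Alas1*, *Kel* and *Trim58*, and *Nfe2* alone on the lower side, with a median of 0.14 that was -0.14 without scaling and -0.29 after spike-in centring. Over the 50 genes read on both arrays, the median was 0.09, 29 lay above 0 and 3 were past 2-fold on the higher side. These counts stand beside 6.7% and 3.04% of all genes, and the median was below the differences of *Hbb-b1*, *Alas2* and *Slc4a1*. The counts moved with the scaling, from 5 higher and 1 lower to 0 higher and 6 lower after spike-in centring.

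Haem synthesis genes were mostly within 2-fold between the arrays, as were most genes. Of 13 genes in the list, 12 were within 2-fold and 1 was higher, beside 6.7% higher and 3.04% lower among all genes. The median was 0.03 and, after spike-in centring, -0.41. The higher gene was *Alas1*, the first enzyme of haem synthesis in cells of all kinds, which read 13987 in wild type and 23296 in the knockout, a difference of 1.02. The dimmer *Alas1* probe had a difference of 0.75. *Alas1* was past 2-fold under 4 of 12 other ways of processing, which were the deposited value table and filters that left it unchanged or nearly so. With the other scalings, normexp and the mean over its probes, *Alas1* was short of 2-fold, from 0.59 (spike-in centring) to 0.998 (cyclic loess). The erythroid *Alas2* exceeded it by 0.30 with a software error of 0.29. *Cpox*, a late enzyme of the pathway, read 2232 and 3487, a difference of 0.93. *Alad*, the enzyme after ALAS, was the lowest of the list at -0.82, with 1503 and 701.

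The red cell membrane list had a median far below the difference of *Slc4a1*. Of 17 genes, 15 had a difference or bound, with a median of 0.08 that was -0.35 after spike-in centring. *Kel*, which carries a blood group antigen, was the 1 gene past 2-fold, beside 6.7% higher and 3.04% lower among all genes. It was at least 2.11-fold higher, with 16.4 (not well above background) in wild type and 41.6 in the knockout. Being well above background in the knockout alone, *Kel* could only come out higher. Over the 12 genes read on both arrays, the median was 0.05, 7 lay above 0 and none was past 2-fold. *Dmtn*, which bundles actin in the membrane skeleton, was the highest gene measured on both arrays at 0.44. *Add2*, an adducin of the same skeleton, was lowest at -0.89, with 70.7 and 31.4. *Aqp1*, a water channel that endothelium also makes, had the highest intensity of the list, 37083 and 30887, and a difference of 0.02. *Epb42* and *Rhag*, both characteristic of red cells, were below background on both arrays.

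Transcription factors and the receptor of the erythroid lineage lay on both sides of 0. Of 12 genes, 11 had a difference, with a median of -0.10 and 5 above 0, which became -0.53 and 1 after spike-in centring. *Nfe2*, a factor of red cells and megakaryocytes, was the 1 gene past 2-fold, beside 6.7% higher and 3.04% lower among all genes. It was lower, with 341 in wild type and 128 in the knockout, a difference of -1.13. *Lmo2*, also made by endothelium, was highest at 0.69, and *Bcl11a*, the silencer of embryonic globin genes, was the brightest, with 6996 and 4604 and a difference of -0.32. *Gata1*, the master factor of the lineage, read 288 and 256, a difference of 0.11. *Gfi1b* was below background on both arrays.

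Genes of late red cell maturation were read on both arrays for 11 of 14 names. Of these, 7 lay above 0, with a median of 0.41. The other 3 were above background in the knockout alone, and with their bounds the median was 0.58, or 0.15 after spike-in centring. Being well above background in the knockout alone, these 3 could only come out higher. *Trim58*, an E3 ligase of late erythroblasts, read 25.9 (not well above background) and 44.8, which is 2.11-fold higher. That value is a plain ratio to its own wild type signal and not a lower limit, with a software error of 0.42 on the log2 scale. *Hemgn*, an erythroid nuclear protein and the brightest of the list, read 48152 and 49453, a difference of 0.32. *Prdx2*, a peroxidase abundant in red cells, was lowest at -0.13.

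**Figure D4:**
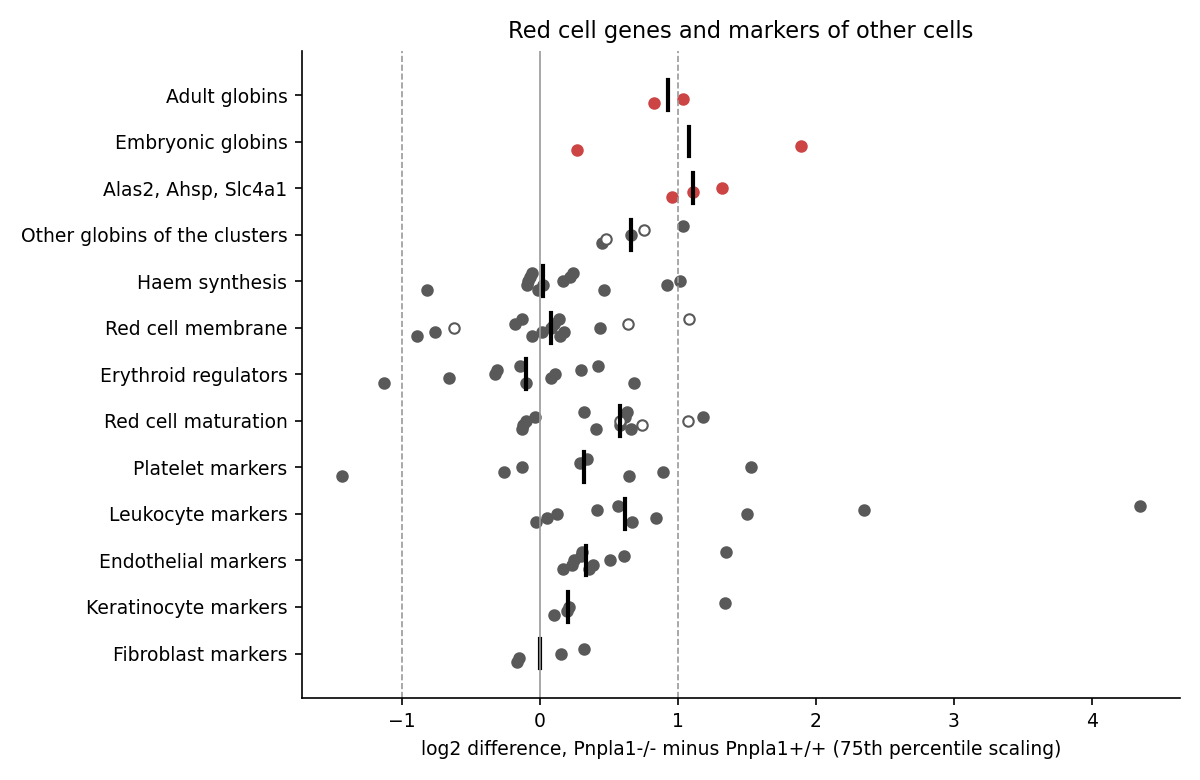
Scaled log2 difference, *Pnpla1*-/- minus *Pnpla1*+/+, of every gene with a difference (filled) or bound (open) in each list; red marks the genes taken by name, short bars are list medians, bounds included, and dashed lines are 2-fold. The medians run from 0.93 to 1.11 for the genes taken by name, against 0.03 for haem synthesis, 0.08 for membrane, -0.10 for regulators, 0.58 for maturation and 0.62 for leukocyte markers, and spike-in centring takes those of haem synthesis, membrane, platelet, endothelial, keratinocyte and fibroblast genes below 0.

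Markers of other blood and vessel cells were read beside the globins. Of 10 leukocyte markers, 9 lay above 0 and 3 were at least 2-fold higher, beside 6.7% of all genes, with a median of 0.62 and a summed intensity of 32714 in wild type and 38330 in the knockout. *Mpo*, a peroxidase of neutrophil granules, read 32.2 and 541, a difference of 4.35. *Lyz2* was higher by 2.35 and *Ptprc*, the pan-leukocyte CD45, by 1.51, and *Csf1r*, the brightest of the list, was at 0.67. The probes of *Itgam*, an integrin of myeloid cells, disagreed, with -0.03 at the brightest (11846 and 9569) and 2.84 (119 and 701) and 1.14 (46.2 and 83.4) at the others. By their brightest probes the other leukocyte markers were within 2-fold, and the part of leukocyte RNA in the red cell values was not tested.

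Platelet markers, which enter skin with the same blood, had no shared direction. Of 10, 8 had a difference, with a median of 0.32. Of these, 1 was at least 2-fold higher (*Gp9*, 1.53) and 1 at least 2-fold lower (*Ppbp*, -1.43), beside 6.7% and 3.04% of all genes. *Pf4*, the brightest of the list, read 40431 and 30441, a difference of -0.13, and the summed intensity was 41956 and 31596. Endothelial markers lay above 0 in 10 of 10 on the 75th percentile scale, but in 7 without scaling and in 3 after spike-in centring. They ran from *Pecam1* at 0.17 to *Vwf* at 1.35, with a median of 0.33, a summed intensity of 43990 and 48764 and *Egfl7*, the brightest, at 0.30. After spike-in centring the median was -0.10 for endothelial and -0.11 for platelet markers and 0.19 for leukocyte markers, 6 of which then lay above 0. The adult globin and *Alas2* differences were thus above the median of each of these lists. On the 75th percentile scale each list held genes past 2-fold, as did 6.7% (higher) and 3.04% (lower) of all genes. *Vwf*, the 1 endothelial gene past 2-fold, was at 0.92 after spike-in centring.

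Skin cells were read in the same way. Of 4 keratinocyte markers, *Krt14*, a keratin of basal cells, read 53789 and 112502, a difference of 1.35 that is as large as that of *Alas2* and was past 2-fold under 11 of 12 other ways of processing. *Krt1*, *Krt10* and *Krt5* were at 0.10, 0.20 and 0.22, and the summed intensity of the list was 813497 and 816644, with *Krt10* the brightest. The 4 fibroblast markers ranged from *Col1a2*, the brightest, at -0.17 to *Pdgfra* at 0.32, with a median of 0.0036 and a summed intensity of 508899 and 394197. The part of skin cell RNA in the red cell values was not tested.

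The pools also differed in sex-linked genes. The Y-linked *Ddx3y* and *Eif2s3y* had differences of -2.19 each, and *Xist*, transcribed from the inactive X chromosome, read 853 and 1528, a difference of 1.12. *Alas2* and *Gata1* are X-linked, with differences of 1.32 and 0.11. The part of the sex-linked difference in the *Alas2* value was not tested. Both arrays were on 1 slide and in 1 scan. The spiked-in E1A control probes, 8 in all, had a median scaled difference of 0.43 and ranged from 0.30 to 0.49, so that the red cell differences are smaller by 0.43 on that reference, with *Hba-a1* at 0.39, *Hbb-b1* at 0.61, *Alas2* at 0.89 and *Hbb-y* at 1.46.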

How the data were processed

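Skin RNA of 6 pooled animals per genotype was hybridised to 1 array each. The intensity of a spot is linear and background-subtracted, as the authors deposited it from Feature Extraction 11.5.1.1, and comes with a software error and quality flags. The deposited value table, used as an alternative, holds the ratio of that intensity to a factor of its array (2109 for wild type, 1734 for knockout). The E1A spike-ins are control RNAs added before labelling.

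Outlier-flagged spots (138 and 82) were left out, log2 values of repeated spots were averaged, and the brightest probe stood for its gene, under the name in the files. Genes well above background on 1 array had a bound against the dim array. Its reference was that array's lowest signal well above background (23.9 and 21.7 as deposited) or the probe's own signal there, whichever was higher. A value against the probe's own signal is a plain ratio and not a lower limit. There were 20705 genes measured on both arrays, 1695 with a bound and 7777 below background on both. The members and lists were chosen with earlier results of these data known. Named are all 9 genes, and of each other list every gene past 2-fold, the highest, the lowest and the brightest, except 1 gene that is not reported here; *Gata1*, *Cpox*, *Hbb-bh2*, *Epb42*, *Rhag* and *Gfi1b* were added after their values were seen. No test was possible with 1 array per genotype, and the number of arrays limits the precision. Other scalings (median, none, quantile, cyclic loess, spike-in), normexp background correction, probe rules and filters were tried. Calculations used Python 3.11.15, numpy 2.4.6, pandas 2.3.3, Biopython 1.88, R 4.3.3 and limma 3.58.1, and were tested on simulated data. Probe coordinates are on mm9 as deposited, and promoters on GRCm38.p6.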

Additional observations from a re-analysis of the deposited data

How the results depend on the processing

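All 12 other ways of scaling, correcting and filtering kept *Hba-a1*, *Hbb-b1*, *Hbb-y*, *Alas2*, *Ahsp* and *Slc4a1* above 0. *Hbb-y* was past 2-fold in 12 of 12, *Alas2* in 11, *Slc4a1* in 9, *Hbb-b1* in 7, *Ahsp* in 1 and *Hba-a1* in 0. The probe rules, the filters and the deposited value table left these differences unchanged or nearly so. These tallies, and those of *Krt14* and *Cd163*, therefore rest on the scalings and normexp alone. The adult globin median (0.93) was 0.86 with median scaling, 0.65 without scaling, 0.79 with quantile normalization, 0.82 with cyclic loess and 0.50 with spike-in centring. The embryonic median (1.08) was 0.80 without scaling, 0.90 with quantile normalization, 0.91 with cyclic loess, 0.65 with spike-in centring, 0.68 with normexp and 1.89 without a filter on dim probes, which brings in *Hba-x* at 2.13. The median of *Alas2*, *Ahsp* and *Slc4a1* (1.11) was 1.04 with median scaling, 0.83 without scaling, 1.03 with quantile normalization, 0.68 with spike-in centring, 0.94 with normexp and 1.03 without a filter, which brings in *Klf1* at 0.65. The embryonic minus adult contrast (0.15) was -0.24 with normexp and 0.96 without a filter. Genes of the other red cell lists past 2-fold (5 higher, 1 lower) numbered 14 and 6 at 1.5-fold, 0 and 0 at 3-fold, 0 and 4 without scaling, 1 and 2 with quantile normalization, 2 and 2 with cyclic loess, 0 and 6 with spike-in centring, 2 and 0 with normexp, and 9 and 2 without a filter; the higher genes were 3 with median scaling and 3 over probes read on both arrays. Over all genes, 1501 were higher and 682 lower as reported, 960 and 321 with normexp, 999 and 1425 without scaling, 828 and 2184 with spike-in centring and 3047 and 1107 without a filter. Spike-in centring moved the median of all genes by -0.44, no scaling by -0.28 and no filter by 0.10. The cause of these shifts was not tested. No paired analysis was possible because each genotype had 1 array. Intensities under 200 limit what can be read from the embryonic globins and *Klf1*.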

Other observations

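Genes that clear haem, haemoglobin and iron differed between the arrays in both directions. *Hp*, haptoglobin, which binds free haemoglobin in plasma, read 17112 in wild type and 40684 in the knockout, a scaled log2 difference of 1.53. *Cd163*, the macrophage receptor of the haptoglobin complex, was dim, with 55.4 and 99.98, a difference of 1.13 that was past 2-fold under 7 of 12 other ways of processing. *Hmox1*, haem oxygenase, which opens the haem ring, read 11430 and 3200, a difference of -1.55, and stayed between -1.99 and -1.41 under the other ways of processing. *Slc40a1*, the iron exporter ferroportin, read 4894 and 1644, a difference of -1.29. These were the 2 higher and 2 lower genes past 2-fold among the 10 of the list, beside 6.7% higher and 3.04% lower among all genes, and the median of the list was 0.35 and, after spike-in centring, -0.08. *Ftl1*, a ferritin chain and the brightest of the list, read 159709 and 131405, a difference of 0.00053.

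Globins of other tissues were within 2-fold, with a median of 0.23 that was -0.21 after spike-in centring. *Mb*, myoglobin of muscle, read 313 and 343, a difference of 0.41. *Cygb*, cytoglobin of fibroblast-like cells, read 9065 and 7659, a difference of 0.04. *Ngb*, neuroglobin, was below background in both pools.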
